A study of Mus musculus with 12 samples.

Results

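The comparison was of lung at 4 weeks against lung at 1 week after paraquat, within treated mice. It used 6 of the 12 libraries of the study, chosen by their treatment labels: 3 labelled PQ 4w and 3 labelled PQ 1w. All mice were wild type C57BL/6J with an age label of 8 week in every group, whether the treatment label gave 1w or 4w. The paraquat groups had received 1 instillation of paraquat in saline into the trachea, and the control groups, with 3 libraries at 1w and 3 at 4w, had received saline; the labels used here give no dose. RNA came from homogenized lung, so every value is an average over all its cells, and fewer cells of a type and less RNA per cell cannot be told apart. The labels number the replicates and do not say whether each was 1 animal, so p-values measure the spread between these samples, which may be technical.

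Paraquat is a herbicide that cycles between its oxidized and reduced forms inside cells and gives rise to superoxide, and the lung takes it up through a polyamine transport system of alveolar epithelium. After such an injury the surviving alveolar type 2 cells divide and pass through a transitional, keratin-rich state on the way to flat type 1 cells, while fibroblasts lay down collagen and other matrix and macrophages clear debris. If the injury resolves, proliferation stops, matrix genes return to their resting level and lymphocytes repopulate the tissue. If it does not, fibroblasts stay active and the alveoli scar.

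Each library held 17220978 to 18559809 expected counts, and 15921 of 20774 listed genes were tested. Levels are given as CPM, counts scaled to a common library size with TMM factors, and changes as log2 of PQ 4w over PQ 1w. A gene is said to have risen or fallen where its Benjamini-Hochberg adjusted p from edgeR's quasi-likelihood test was under 0.05 over all genes tested. Lung markers were present in every library: Sftpc of type 2 cells, Ager of type 1 cells, Scgb1a1 of airway club cells and Pecam1 of endothelium all exceeded 500 CPM. In a principal component analysis of the 6 treated libraries, the first component held 72.0% of the variance and separated 1w from 4w. The second held 13.7% and separated PQ 4w replicate 3, at 43.8, from PQ 4w replicates 1 and 2, at -14.6 and -20.4. Replicate 3 was lower than the other PQ 4w libraries in airway and heart muscle markers and higher in interferon-induced and B cell genes, and replicate 1 was lowest in type 1 epithelial and capillary genes. For several lists and genes the value without one of these libraries is given beside the result.

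**Figure D1:**
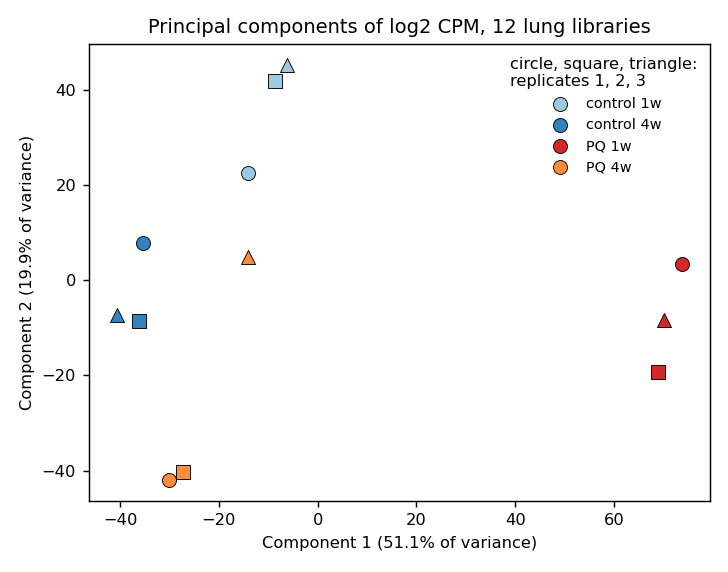
Principal components 1 and 2 of log2 CPM over all 12 libraries, with the share of variance on each axis, colour for the group and marker shape for the replicate number. The 3 PQ 1w libraries lie apart at the right, and the PQ 4w libraries lie on the side of the controls, with replicate 3 away from replicates 1 and 2.

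Most of the measured transcriptome differed between 4 weeks and 1 week after paraquat. Of the 15921 genes, 8684 passed the test, or 54.5%, with 4254 higher (26.7%) and 4430 lower (27.8%) at 4w. A change of at least 2-fold was found for 1463 higher genes (9.19%) and 1016 lower genes (6.38%), and the median log2 change over all genes was 0.0037. The balance of direction depended on the scaling: 49.0% of the calls were higher here, 57.7% with library totals as the scale and 56.5% by limma on log2(FPKM + 0.1). Over the same interval 1609 genes passed in saline lung, or 10.1%, with 433 changed at least 2-fold (2.72%). Of these calls 58.4% were higher at 4w by edgeR and 47.7% by DESeq2. That control count moved between 123 and 2570 when 1 library was left out. It was 337 and 139 without control 1w replicates 1 and 3, 678, 123 and 159 without control 4w replicates 1, 2 and 3, 931 without PQ 1w replicate 3 and 2570 without PQ 4w replicate 3. The time change differed between paraquat and saline lung, by the test of that difference, for 5092 genes or 32.0% (14.1% higher, 17.9% lower). Of these calls 44.2% were higher, and 53.4% with library totals and 50.8% by limma on log2(FPKM + 0.1). This was so for 2585 of the 4430 genes that fell in treated lung and for 2032 of the 4254 that rose. Against saline lung of the same time, 7772 genes (48.8%) passed at 1w and 1932 (12.1%) at 4w. The latter count was 641, 1096 and 1183 without control 4w replicates 1, 2 and 3 and 994 without PQ 4w replicate 1. These comparisons share the treated libraries with the main one and are given for level only.

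Gene groups were read against 49 lists of cell type markers and pathways. Of the 915 symbols listed, 51 were in more than 1 list, so the lists are not independent. In 15 lists over 50% of the tested members fell, in 13 over 50% rose, and in 21 neither held. Of all genes tested, 26.7% rose and 27.8% fell in treated lung, and 5.9% rose and 4.2% fell in saline lung. The time change was higher than in saline lung for 14.1% and lower for 17.9%. List counts below that carry no share are to be read against these. All members fell in the lists of mitosis and DNA replication, and all rose in those of T, NK and B cells. The 5 matrix lists, mesothelium, transitional epithelium and lipid-associated macrophages were among those in which most members fell. Antigen presentation, dendritic cells, interferon-induced genes, airway epithelium and drug metabolism were among those in which most rose.

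**Figure D2:**
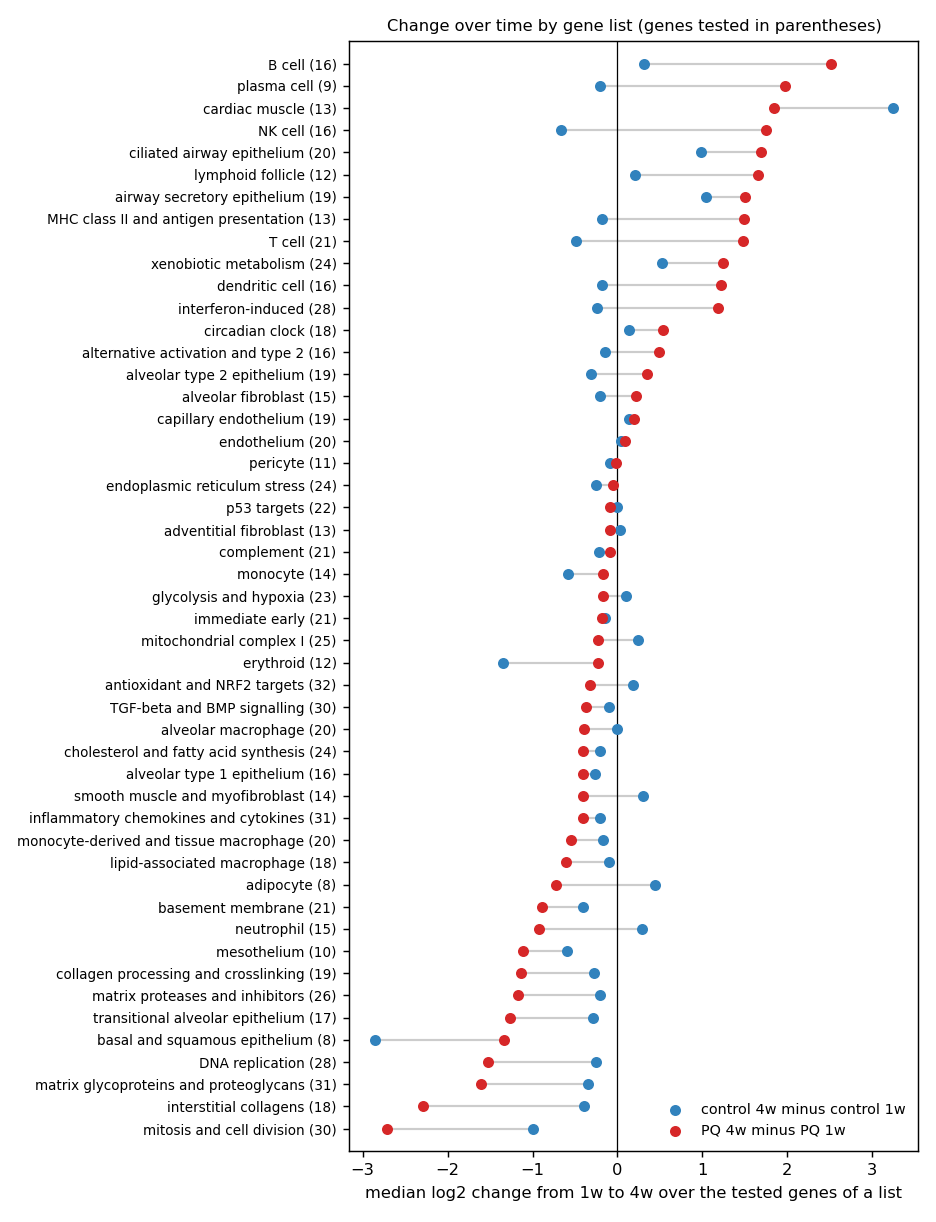
Median log2 change from 1w to 4w over the tested genes of each of 49 lists, in paraquat lung (red) and saline lung (blue), with the number of tested genes in parentheses. The median of mitosis was -2.72 in paraquat lung and -1 in saline lung, and that of B cells was 2.51 and 0.31.

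Collagen genes fell together. Of 18 interstitial collagens, 17 fell and 1 rose, beside 27.8% and 26.7% of all genes, with a median log2 change of -2.29. In saline lung the median was -0.39, with 8 lower and 1 higher (4.2% and 5.9% of all genes), and the time change was lower than in saline lung for 16 of the 18, beside 17.9% of all genes. Col1a1, which encodes the main chain of type I collagen (chromosome 11, 94936224 to 94953042 in GRCm38), had 3676, 4026 and 4391 CPM at 1w and 547, 650.3 and 549 CPM at 4w. All 3 libraries at 4w were far below the lowest at 1w and overlapped the range of saline lung at that time, 543, 560.5 and 548 CPM. The fall was 6.93-fold (log2 change -2.79, SE 0.092, adjusted p = 2.03e-09). Its partner chain Col1a2 had 2955, 3099 and 3181 CPM at 1w and 592, 658 and 607 CPM at 4w (log2 change -2.31, SE 0.072, adjusted p = 2.03e-09). Col3a1, the type III collagen of early repair tissue, had 3466, 3474 and 3818 CPM at 1w and 636, 788 and 767 CPM at 4w (log2 change -2.30, SE 0.10, adjusted p = 1.81e-08). It remained above saline lung, which had 527, 604 and 528 CPM, by 0.40 on the log2 scale at 4w (adjusted p = 0.0227).

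Per length, in the deposited FPKM, Col1a1 had a mean of 664.1 at 1w and 100.3 at 4w, and Col3a1 631.5 and 134.5, so the order of the 2 genes differed between the times. Col5a2, which sets the width of collagen fibrils with other type V chains, fell 7.79-fold with 866, 809 and 838 CPM at 1w and 90.4, 116 and 116 CPM at 4w (adjusted p = 2.03e-09). The largest fall in the list was that of Col11a1, a fibril-nucleating chain, with a log2 change of -3.51. Col8a2, a short-chain collagen, was the 1 member that rose, by 1.29. Type IV collagens and laminins of the basement membrane moved less: 18 of 21 genes fell and 0 rose, with a median of -0.89. Col4a1 had 3031, 3185 and 2867 CPM at 1w and 1087, 1256 and 1280 CPM at 4w (log2 change -1.33, SE 0.086, adjusted p = 3.08e-07), and Col18a1, the source of endostatin, had 201, 238 and 238 CPM at 1w and 66.2, 82.8 and 73.8 CPM at 4w. Lama1, the laminin chain of the embryonic basement membrane, fell, with a log2 change of -3.37.

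Genes that modify and crosslink collagen fell as well, 17 of 19 with 1 rise and a median of -1.13. Loxl2, a lysyl oxidase that crosslinks collagen, had 245, 250.3 and 297 CPM at 1w and 39.4, 59.5 and 51 CPM at 4w and fell 5.29-fold (adjusted p = 5.28e-08). Fkbp10, a chaperone of procollagen, had 140.5, 144 and 152 CPM at 1w and 33.6, 38.4 and 40.1 CPM at 4w (log2 change -1.96, SE 0.077, adjusted p = 7.89e-09). Neither gene had overlapping values between the times, as was so for 61.2% of all genes. Among the lysyl oxidases all 5 fell, with log2 changes from -1.23 for Loxl3 to -2.40 for Loxl2, and of the prolyl hydroxylases P4ha3 fell most, by 3.37 on the log2 scale. P4ha1, the widely expressed prolyl hydroxylase, did not pass, at 0.26. Pcolce2, an enhancer of procollagen cleavage, rose by 0.87.

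Of 31 matrix glycoproteins and proteoglycans, 25 fell and 1 rose, and the median was -1.60 against -0.35 in saline lung. Tnc, the injury-associated tenascin, had 363, 534 and 566 CPM at 1w and 24.9, 40.2 and 31.5 CPM at 4w and fell 15.1-fold (log2 change -3.92, SE 0.19, adjusted p = 3.23e-08). Fn1, fibronectin, had 4064, 5090 and 4251 CPM at 1w and 584, 662 and 718 CPM at 4w (log2 change -2.77, SE 0.19, adjusted p = 4.43e-07). Both stayed above saline lung of 4w, which had 19.7, 16.7 and 17.6 CPM of Tnc (adjusted p = 0.0139) and 370.3, 319 and 435 CPM of Fn1 (adjusted p = 0.0144). The values of the treated libraries at 4w did not overlap those of saline lung for either gene. Fbn1 and Eln belong to the elastic fibres. Fbn1, a microfibril scaffold, had 784, 758 and 651 CPM at 1w and 122, 157 and 167 CPM at 4w (log2 change -2.30, SE 0.11, adjusted p = 3.23e-08). Eln, elastin, had 11660, 9862 and 8167 CPM at 1w and 655, 881 and 936 CPM at 4w and fell 12-fold (adjusted p = 2.66e-07). Its 3 values at 4w lay in or near the saline range of 689, 966 and 559 CPM. Has2, which makes hyaluronan, fell 14.4-fold from 5.67, 10.6 and 7.85 CPM to 1.1, 0.169 and 0.384 CPM. The small proteoglycans Dcn and Lum, of resting fibroblasts, did not pass, at 0.26 and -0.40, and Fbln1 rose by 0.22. Eln and Has2 here, and members without per-library values elsewhere, were chosen after their values were seen.

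Proteases and their inhibitors mostly moved with the matrix. Of 26 genes, 22 fell and 1 rose, with a median of -1.18. Timp1, the inducible inhibitor of metalloproteinases, had 100.2, 118 and 112 CPM at 1w and 10.7, 15.2 and 10.4 CPM at 4w and fell 9.07-fold (log2 change -3.18, SE 0.18, adjusted p = 1.2e-07). Mmp14, a membrane collagenase, had 513, 583 and 554 CPM at 1w and 137, 142 and 145 CPM at 4w (log2 change -1.96, SE 0.081, adjusted p = 1.19e-08), and Adam12, a marker of activated stroma, had 45.3, 50.7 and 49.4 CPM at 1w and 2.69, 3.21 and 3.29 CPM at 4w (log2 change -3.98, SE 0.16, adjusted p = 7.89e-09). For all 3 genes the times did not overlap. Mmp12, the elastase of macrophages, was the 1 member that rose: it had 11.9, 11.4 and 14.3 CPM at 1w and 29.1, 47.6 and 15 CPM at 4w (log2 change 1.28, SE 0.32, adjusted p = 0.00457). All 3 libraries at 4w were above those at 1w, replicate 3 only just, and saline lung had 3.93, 5.83 and 3.48 CPM. In treated lung Mmp12 thus stood above saline at 4w by 2.79 on the log2 scale (adjusted p = 0.00105), and its time change differed from that of saline lung (adjusted p = 0.0229).

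Transforming growth factor beta is the main signal that turns fibroblasts into matrix-producing cells, and bone morphogenetic proteins often oppose it. Of 30 genes of both branches, 17 fell and 6 rose, beside 27.8% and 26.7% of all genes, with a median of -0.37. All 3 ligands fell modestly, Tgfb1 by 0.55, Tgfb2 by 0.91 and Tgfb3 by 0.83 on the log2 scale. The integrin subunits Itgav and Itgb6, which together release the latent ligand in epithelium, fell, with log2 changes of -0.83 and -1.98. Among receptors, Tgfbr2 had 628, 641 and 576 CPM at 1w and 353, 342 and 369.5 CPM at 4w (log2 change -0.79, SE 0.072, adjusted p = 3.67e-06), Tgfbr1 did not pass, and the co-receptor Tgfbr3 rose by 0.73. Grem1, an antagonist of bone morphogenetic proteins, had 2.81, 16.6 and 10.1 CPM at 1w and 0.33, 0.731 and 0.165 CPM at 4w and fell 23.8-fold (log2 change -4.57, SE 0.67, adjusted p = 0.000142). Its 1w values spread widely. It was among the genes named for a large change, for which lack of overlap with 4w was a condition. Fst, follistatin, an activin antagonist, had 58, 67.2 and 62.8 CPM at 1w and 13.4, 16.3 and 8.02 CPM at 4w (log2 change -2.32, SE 0.18, adjusted p = 1.17e-06) and stood above saline lung at 4w (5.44, 5.09 and 5.82 CPM, adjusted p = 0.00372). Inhba, the activin A subunit, fell, with a log2 change of -2.04. On the other branch the receptor Bmpr2 and the ligand Bmp6 rose by 0.48 and 0.94.

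Of 14 smooth muscle and myofibroblast genes, 5 rose and 5 fell, near the 26.7% and 27.8% of all genes. Acta2, smooth muscle actin, had 436, 416 and 425 CPM at 1w and 153, 223 and 125 CPM at 4w (log2 change -1.35, SE 0.17, adjusted p = 5.25e-05), and Tagln had 336, 299.8 and 320.5 CPM at 1w and 155, 191 and 120.4 CPM at 4w (log2 change -1.04, SE 0.13, adjusted p = 4.97e-05), both with a 4w range below the 1w range. The members that rose were Myh11, Cnn1, Lmod1, Synpo2 and Hhip, between 0.33 and 1.03, and the first 4 of them encode parts of the mature smooth muscle apparatus. Without PQ 4w replicate 1, 2 rose and 5 fell. Lrrc15, a marker of matrix-producing fibroblasts in scar and tumour, had 2.92, 5.67 and 6.43 CPM at 1w and 0.22, 0.225 and 0 CPM at 4w and fell 32.4-fold (log2 change -5.02, SE 0.51, adjusted p = 9.27e-06).

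Genes of resting alveolar fibroblasts were mixed. Of 15 members, 7 rose and 3 fell, beside 26.7% and 27.8% of all genes, and without PQ 4w replicate 3 the split was 5 and 5. Slc7a10, an amino acid carrier, had 3.08, 3.16 and 3.22 CPM at 1w and 25.1, 21.2 and 20.8 CPM at 4w and rose 7.08-fold (log2 change 2.82, SE 0.12, adjusted p = 1.61e-08). The time change differed from that of saline lung (adjusted p = 1.22e-06), yet its 3 values at 4w remained below the 43.6, 42.3 and 45.4 CPM of saline lung (adjusted p = 0.000354). Ces1d, a lipid hydrolase, had 166, 177 and 164 CPM at 1w and 518, 527 and 448 CPM at 4w (log2 change 1.56, SE 0.07, adjusted p = 1.81e-08), and Inmt, a methyltransferase, had 410.1, 203 and 281 CPM at 1w and 1283, 1206 and 1264 CPM at 4w (log2 change 2.07, SE 0.19, adjusted p = 3.86e-06). Cdh11, a fibroblast cadherin, fell, with a log2 change of -1.56. Sfrp1, a Wnt antagonist of the adventitial list, had 160, 209.9 and 182 CPM at 1w and 45.8, 38.4 and 45.5 CPM at 4w (log2 change -2.09, SE 0.13, adjusted p = 1.87e-07) and remained above saline lung (adjusted p = 0.0014). Mesothelial genes fell, 9 of 10 with a median of -1.11. Msln, mesothelin, had 455, 449 and 446 CPM at 1w and 44, 46.8 and 75.8 CPM at 4w and fell 8.11-fold (adjusted p = 3.02e-07). In saline lung 3 of the 10 fell (median -0.59), beside 4.2% of all genes. The time change differed between treatments for 2 of 10, both lower, beside 17.9% of all genes lower.

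The sharpest list-wide fall was in cell division. All 30 mitotic genes fell, with a median of -2.72, and all 28 genes of DNA replication fell, with a median of -1.52. Saline lung also declined, by medians of -1 with 26 of 30 lower and -0.25 with 11 of 28 lower, beside 4.2% of all genes. The decline was larger in treated lung for all 30 and all 28 genes, by the test of the difference, beside 17.9% of all genes lower. Cdk1, the kinase that drives entry into mitosis, had 44.9, 43 and 49.6 CPM at 1w and 5.94, 4.39 and 4.34 CPM at 4w (log2 change -3.23, SE 0.18, adjusted p = 1.16e-07). Foxm1, a transcription factor of mitotic genes, had 55.2, 56.6 and 59.5 CPM at 1w and 6.71, 7.09 and 8.51 CPM at 4w (log2 change -2.94, SE 0.10, adjusted p = 3.38e-09). Kif20a, a kinesin of cytokinesis, had 45.3, 44.4 and 47 CPM at 1w and 5.61, 5.06 and 5.71 CPM at 4w (log2 change -3.06, SE 0.11, adjusted p = 3.44e-09). No 4w value of these genes reached the lowest at 1w. In replication, Uhrf1, which couples DNA methylation to the fork, had 44.8, 39.6 and 49.5 CPM at 1w and 9.29, 6.81 and 9.66 CPM at 4w, and Rrm1, a ribonucleotide reductase subunit, had 91.1, 95.5 and 96 CPM at 1w and 29.1, 31.8 and 33.4 CPM at 4w. Mki67, a common marker of cycling cells, had 151, 167 and 186 CPM at 1w and 25.5, 17.2 and 35 CPM at 4w and remained above saline lung at 4w, which had 14.9, 14.5 and 11 CPM (adjusted p = 0.015). Of the mitotic list 11 members were still higher than in saline lung at 4w, beside 5.75% of all genes.

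Mitotic promoters are known for CCAAT boxes, bound by NF-Y, and for the cell cycle homology region (CHR), bound by the DREAM and MuvB complexes. The promoters of 2 mitotic genes are shown because the whole list moved together and both hold matches. Birc5, an inhibitor of apoptosis that acts in mitosis, was also read and held 0 CHR and 0 CCAAT matches. They are the 250 bases before the RefSeq start in GRCm38.p6, 5′ to 3′ on the gene's strand, with capitals on CHR matches (TTTGAA or TTCGAA) and CCAAT matches (CCAAT), each on either strand. Cdk1 lies at chr10:69352913-69353162 on the minus strand and Ube2c, a ubiquitin-conjugating enzyme of mitotic exit, at chr2:164769679-164769928 on the plus strand.
Cdk1: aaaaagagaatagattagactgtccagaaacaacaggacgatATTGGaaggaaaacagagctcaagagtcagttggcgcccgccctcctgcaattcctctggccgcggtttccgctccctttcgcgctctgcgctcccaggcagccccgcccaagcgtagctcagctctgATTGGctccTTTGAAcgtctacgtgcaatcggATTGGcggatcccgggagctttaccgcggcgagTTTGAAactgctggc
Ube2c: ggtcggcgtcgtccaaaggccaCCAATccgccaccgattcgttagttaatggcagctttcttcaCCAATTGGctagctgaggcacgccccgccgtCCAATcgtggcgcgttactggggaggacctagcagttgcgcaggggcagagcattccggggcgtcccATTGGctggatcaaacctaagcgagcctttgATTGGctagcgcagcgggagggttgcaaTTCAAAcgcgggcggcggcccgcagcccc
Cdk1 held CHR matches that began 71 and 15 bases before the start and 3 CCAAT matches. Ube2c held a CHR match 29 bases before the start and 6 CCAAT matches, and its level was 37.3, 41.2 and 48.6 CPM at 1w and 6.65, 4.67 and 7.96 CPM at 4w. Of the 24 mitotic genes with a window, 10 (41.7%) held a CHR match and 20 (83.3%) a CCAAT match, beside 15.2% and 39.6% of the 12520 tested genes with one. These are descriptions of letters and not of binding.

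**Figure D3:**
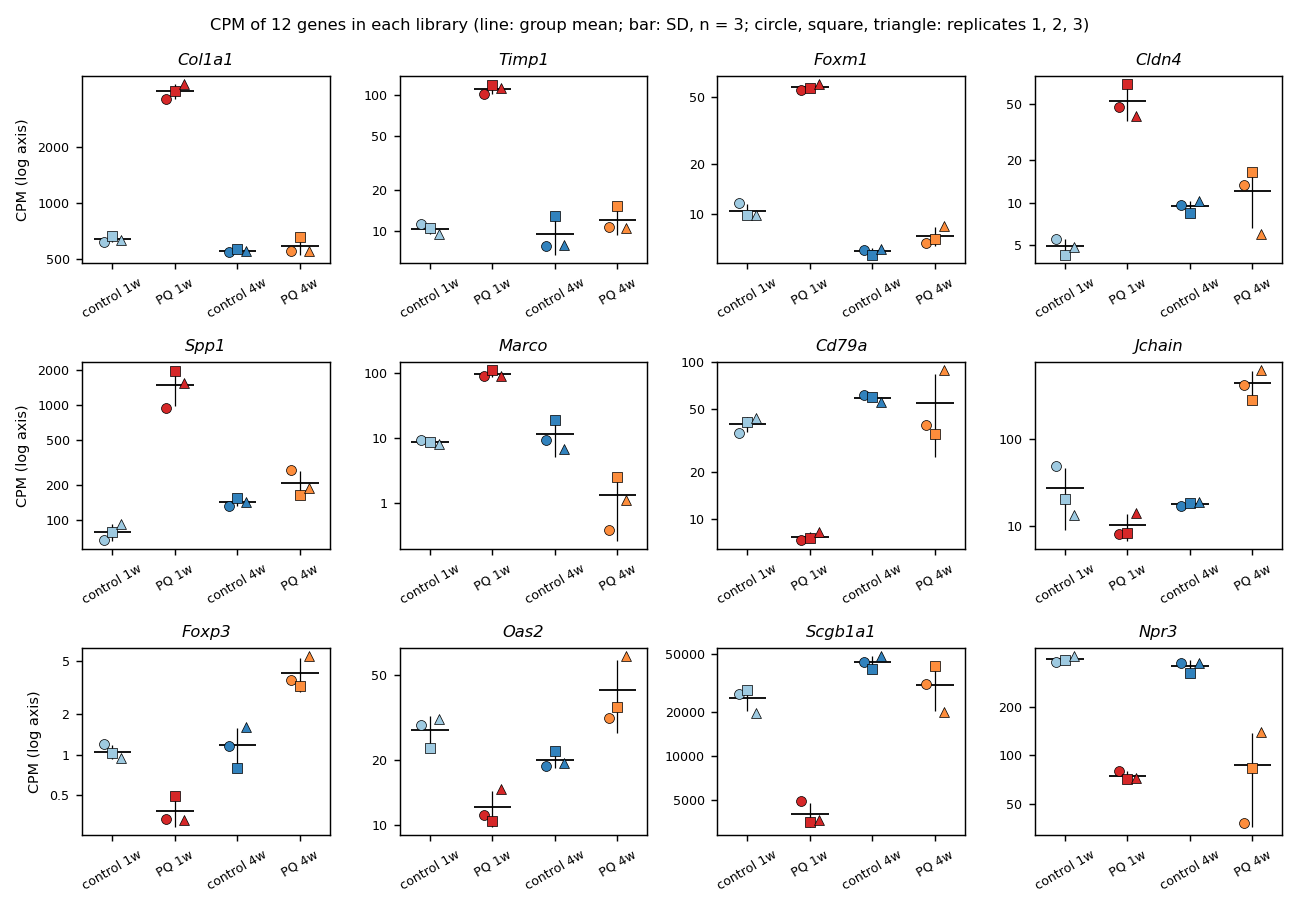
CPM on a log axis of 12 genes in each library, by group, with the group mean (line) and SD (bar, n = 3) and marker shape for the replicate. Col1a1, Timp1, Foxm1, Cldn4, Spp1 and Marco were lower at PQ 4w than at PQ 1w in every library, Cd79a, Jchain, Foxp3, Oas2 and Scgb1a1 were higher, and the PQ 1w and PQ 4w values of Npr3 overlapped below the controls.

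Markers of the transitional alveolar state fell, 16 of 17 with a median of -1.26, against -0.29 in saline lung. The time change differed for 12 of them, beside 32.0% of all genes. Cldn4, a tight junction protein, had 47.5, 69.1 and 41.3 CPM at 1w and 13.4, 16.5 and 5.98 CPM at 4w (log2 change -2.14, SE 0.29, adjusted p = 7.13e-05), and Krt8, the keratin by which the state is known, had 346, 405 and 318 CPM at 1w and 235, 250.3 and 175 CPM at 4w (log2 change -0.69, SE 0.13, adjusted p = 0.000843). The 2 times did not overlap for either gene. Ndnf, a secreted factor, had 215, 331 and 241 CPM at 1w and 31.6, 50.1 and 63.2 CPM at 4w (log2 change -2.44, SE 0.21, adjusted p = 2.7e-06), and Lgals3, galectin 3, had 292, 266 and 278 CPM at 1w and 131, 142 and 117 CPM at 4w (log2 change -1.10, SE 0.075, adjusted p = 4.21e-07). Lgals3 is also a macrophage gene and remained above saline lung (adjusted p = 0.00334).

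Of 19 genes of alveolar type 2 cells, which make surfactant, 12 rose and 2 fell, beside 26.7% and 27.8% of all genes, with a median of 0.35. In saline lung 8 fell, beside 4.2% of all genes. Sftpc, surfactant protein C, had 9006, 10060 and 9171 CPM at 1w and 15700, 14990 and 15940 CPM at 4w (log2 change 0.72, SE 0.11, adjusted p = 0.000238). Its 4w values overlapped those of saline lung at that time, 17110, 14260 and 15460 CPM. Sftpa1 rose by 0.98, while Sftpb and Sftpd did not pass, at 0.20 and 0.043. Lyz1, a lysozyme of type 2 cells, had 399, 495 and 439.8 CPM at 1w and 1466, 1102 and 1127 CPM at 4w (log2 change 1.47, SE 0.14, adjusted p = 6.92e-06) and was above saline lung (adjusted p = 0.0242). Ctsh, a protease that processes surfactant proteins, fell by 1.27 on the log2 scale.

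Type 1 cell genes did not rise as a list: 1 of 16 rose and 8 fell, beside 26.7% and 27.8% of all genes, and the median was -0.40. Ager had 2240, 2064 and 1869 CPM at 1w and 1080, 1644 and 1935 CPM at 4w and did not pass (adjusted p = 0.0658). Pdpn, podoplanin, had 256, 261 and 239.6 CPM at 1w and 75.7, 125 and 117 CPM at 4w (log2 change -1.25, SE 0.15, adjusted p = 2.86e-05), and Spock2 had 603, 648 and 532 CPM at 1w and 135, 249 and 279.6 CPM at 4w (log2 change -1.42, SE 0.20, adjusted p = 0.000112). PQ 4w replicate 1 was the lowest library for each of the 3. The list's level, the mean log2 CPM of its genes relative to control 1w, was -1.33 in that library and -0.58 and -0.50 in replicates 2 and 3, against -0.33 to -0.17 at PQ 1w. Without replicate 1, 2 genes rose and 8 fell with a median of -0.23.

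Airway genes rose in both treated and saline lung. Of 19 secretory genes 14 rose and 0 fell in treated lung (median 1.5), and 9 rose in saline lung (median 1.04). The difference passed for 7, all higher, beside 14.1% of all genes higher and 17.9% lower. Scgb1a1, the club cell secretoglobin, had 4890, 3524 and 3619 CPM at 1w and 31150, 41150 and 19970 CPM at 4w and rose 7.67-fold (log2 change 2.94, SE 0.25, adjusted p = 1.94e-06), and Cyp2f2, a club cell cytochrome, had 385, 426 and 376 CPM at 1w and 3611, 4102 and 2276 CPM at 4w (log2 change 3.07, SE 0.19, adjusted p = 1.87e-07). Both also rose in saline lung, by 0.82 and 1.04, and rose more in treated lung (adjusted p of the difference 0.000637 and 0.000165). Cyp2f2 remained below saline lung at 4w by 0.63 on the log2 scale (adjusted p = 0.0356). Mucin genes depended on the library. Muc5b rose, with 14.1, 126 and 31.6 CPM at 1w and 692, 704 and 58.2 CPM at 4w (adjusted p = 0.0164) and replicate 3 of 4w inside the 1w range, and Muc5ac rose, with 0.935, 4.52 and 1.2 CPM at 1w and 13.1, 48.3 and 2.25 CPM at 4w (adjusted p = 0.00799). Without replicate 2 of 4w Muc5ac did not pass, at a log2 change of 1.78 (adjusted p = 0.0591), while Muc5b still passed with any of the 3 left out, at 2.70 to 3.59. In saline lung Muc5b and Muc5ac had log2 changes of 2.35 and 2.10, which did not pass by edgeR (adjusted p = 0.123 and 0.19). Their time changes did not pass as different between the treatments (adjusted p = 0.693 and 0.548). Neither gene passed against saline lung at 4w (adjusted p = 0.591 and 0.114).

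Ciliated cell genes behaved alike, with 17 of 20 higher in treated lung (median 1.69) and 10 higher in saline lung (median 0.98). The difference passed for 5, all higher, beside 14.1% of all genes higher and 17.9% lower. Foxj1, the regulator of motile cilia, had 64, 89.2 and 73.5 CPM at 1w and 294, 235 and 119 CPM at 4w (log2 change 1.52, SE 0.27, adjusted p = 0.000525), and its time change did not pass as different from saline lung (adjusted p = 0.285). Tppp3, a tubulin-binding protein, had 128, 115 and 116 CPM at 1w and 353, 389 and 247 CPM at 4w (log2 change 1.46, SE 0.17, adjusted p = 2.12e-05) in treated lung and a log2 change of 0.087 in saline lung, where it did not pass (adjusted p = 0.759). PQ 4w replicate 3 stood apart in both lists. Its secretory level was 0.075 against 2.10 and 2.37 in replicates 1 and 2, and its ciliated level 0.24 against 1.38 and 1.13. Without it, 17 secretory and 20 ciliated genes rose.

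Heart muscle genes moved alongside, and their part in the airway result was not tested. Of 13 such genes 5 rose in treated lung (median 1.84) and 12 in saline lung (median 3.24), with 11 in treated lung without PQ 4w replicate 3. Their level was -0.51 to 1.13 at PQ 1w, 2.49, 3.26 and 0.46 in PQ 4w replicates 1 to 3 and 2.42 to 4.03 at control 4w. Fat cell genes had 3 of 8 members higher, beside 26.7% of all genes, with a median of -0.73, so the count and the median differ in sign. Red cell genes had 3 of 12 lower, beside 27.8% of all genes. Hbb-bs, a beta globin, had 634, 246 and 693 CPM at 1w and 666, 413 and 256 CPM at 4w with no pass (adjusted p = 0.683).

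**Figure D4:**
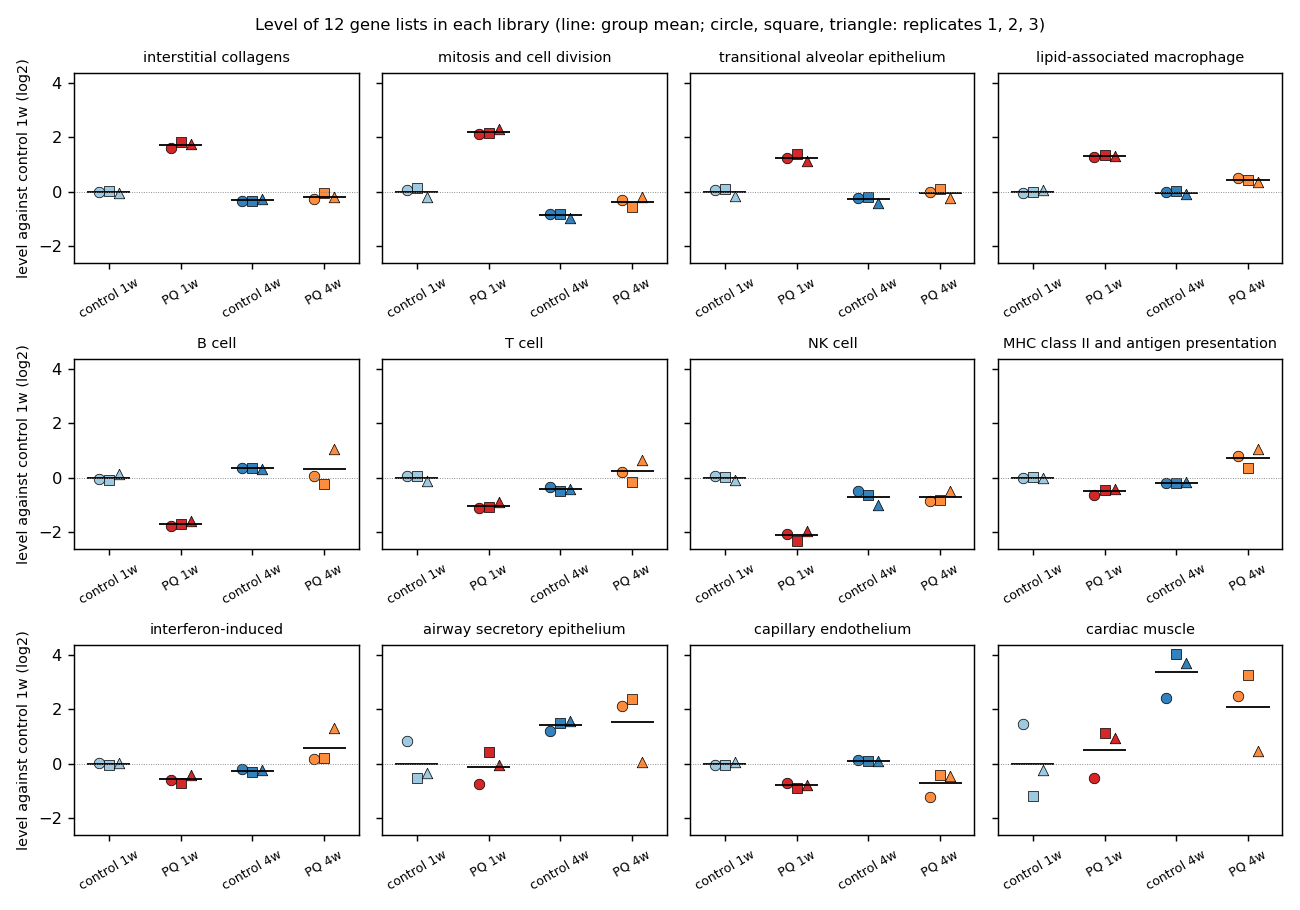
Level of 12 gene lists in each library, as the mean log2(CPM + 0.5) of the tested genes minus the mean of control 1w, with group means as lines and marker shape for the replicate. Collagen, mitosis, transitional and lipid-associated macrophage levels were highest at PQ 1w, lymphocyte levels were lowest at PQ 1w, and PQ 4w replicate 3 was highest in interferon-induced genes and lowest of its group in airway and cardiac genes.

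Many macrophage genes fell and some stayed above saline lung. Of 18 genes of lipid-associated macrophages, the phagocytes found in scarred lung, 17 fell and 1 rose (median -0.60). Against saline lung 13 were higher at 1w, beside 25.9% of all genes, and 8 at 4w, beside 5.75%. Spp1, osteopontin, had 949, 1965 and 1549 CPM at 1w and 274, 165 and 189 CPM at 4w and fell 7.12-fold (log2 change -2.83, SE 0.25, adjusted p = 3.13e-06). In saline lung it rose by 0.86 (adjusted p = 0.0451), and at 4w the treated and saline values, 133, 154 and 144 CPM, did not differ by the test (adjusted p = 0.163). Gpnmb, a lysosomal glycoprotein, fell less, with 97.1, 102 and 106 CPM at 1w and 66, 59.5 and 43.5 CPM at 4w (log2 change -0.85, SE 0.12, adjusted p = 7.7e-05). It stood well above the 13, 14.1 and 13.4 CPM of saline lung at 4w (adjusted p = 1.88e-05). Trem2, a lipid receptor, had 51.9, 38.5 and 40.4 CPM at 1w and 17.7, 15.2 and 11.7 CPM at 4w (log2 change -1.55, SE 0.18, adjusted p = 2.1e-05). Arg1, arginase, had 36.5, 45.2 and 33.2 CPM at 1w and 5.06, 6.58 and 1.7 CPM at 4w and fell 8.61-fold, remaining above saline lung (adjusted p = 0.00947).

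Among monocyte-derived and tissue macrophage genes 11 of 20 fell and 2 rose, with a median of -0.55. Against saline lung the median was 1.30 at 1w and 1.03 at 4w, and 12 were still higher at 4w, beside 5.75% of all genes. Cd68, a lysosomal macrophage marker, had 122, 126 and 117 CPM at 1w and 59.3, 50.9 and 54.3 CPM at 4w (log2 change -1.15, SE 0.08, adjusted p = 4.76e-07) and saline lung had 24.2, 24.2 and 26.8 CPM at 4w. C1qa, a complement subunit made by macrophages, had 243, 178 and 197 CPM at 1w and 143, 132 and 152 CPM at 4w (log2 change -0.53, SE 0.15, adjusted p = 0.00926). Cx3cr1 and Aif1 were the 2 that rose, by 0.79 and 0.59. Mrc1, the mannose receptor, had 167, 179 and 179 CPM at 1w and 83.4, 69.8 and 72.7 CPM at 4w (log2 change -1.22, SE 0.071, adjusted p = 1.44e-07), and Cd163, a haemoglobin scavenger receptor, had 57.1, 31.3 and 35.3 CPM at 1w and 17.1, 12.6 and 8.46 CPM at 4w (log2 change -1.70, SE 0.26, adjusted p = 0.000171).

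Of 20 alveolar macrophage genes 10 fell and 1 rose. Marco, a scavenger receptor for particles (chromosome 1, 120474538 to 120505024), had the lowest log2 change of the genes named by the rule on size: 88.4, 109 and 90.9 CPM at 1w and 0.385, 2.48 and 1.1 CPM at 4w (log2 change -6.19, SE 0.43, adjusted p = 5.12e-07). At 4w all 3 treated libraries were also below all 3 of saline lung, which had 9.08, 18.5 and 6.62 CPM (log2 difference -3.11, adjusted p = 0.0021). Marco was thus above saline at 1w and below it at 4w. Siglecf, Fabp4 and Plet1, other genes of resident alveolar macrophages, did not pass, at -0.84, -0.38 and -0.17. Chil3, a chitinase-like protein, had 1157, 1573 and 1184 CPM at 1w and 197, 249 and 354 CPM at 4w (log2 change -2.29, SE 0.18, adjusted p = 1.2e-06). Vsig4, a complement receptor of tissue macrophages, had 6.44, 3.38 and 4.42 CPM at 1w and 0.11, 0.506 and 0.0549 CPM at 4w (log2 change -4.38, SE 0.58, adjusted p = 6.67e-05).

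Recruitment signals fell in part. Of 31 inflammatory chemokines and cytokines 14 fell and 5 rose, beside 27.8% and 26.7% of all genes. Ccl2, which draws monocytes, had 19, 11.9 and 13.7 CPM at 1w and 0.99, 1.57 and 3.02 CPM at 4w (log2 change -2.99, SE 0.38, adjusted p = 5.04e-05), and Lif, a cytokine of the interleukin 6 family, had 18, 27.1 and 20.5 CPM at 1w and 4.4, 5.46 and 2.47 CPM at 4w (log2 change -2.41, SE 0.27, adjusted p = 1.75e-05). Il6 itself fell 5.83-fold from low values, 0.77, 1.47 and 0.763 CPM to 0.11, 0.169 and 0.22 CPM. Those that rose included Cxcl9, an interferon-induced chemokine for T cells, with 4.73, 3.81 and 6.76 CPM at 1w and 6.38, 7.82 and 36.1 CPM at 4w, where replicate 3 of 4w exceeded all others. Without that library Cxcl9 did not pass, at a log2 change of 0.46 (adjusted p = 0.172), and 4 genes of the list rose and 16 fell. Ccl4, Ccl5, Ccl11 and Ccl20 rose by 1.95, 0.83, 0.87 and 3.13. Of 15 neutrophil genes 0 rose and 3 fell, beside 26.7% and 27.8% of all genes. Mmp8, a granule collagenase, had 23.1, 18.1 and 25.1 CPM at 1w and 3.57, 3.26 and 5.38 CPM at 4w (log2 change -2.44, SE 0.53, adjusted p = 0.0021), and S100a8 had 29.6, 16.9 and 34.8 CPM at 1w and 10.1, 11.1 and 21.6 CPM at 4w and did not pass (adjusted p = 0.165).

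Lymphocyte genes rose without exception in the T, NK and B lists. All 16 B cell genes rose, beside 26.7% of all genes, with a median of 2.51 in treated lung and 0.31 in saline lung. The time change differed for 15, beside 32.0% of all genes. Cd79a, a chain of the B cell receptor complex, had 7.32, 7.52 and 8.23 CPM at 1w and 39.8, 35 and 88.9 CPM at 4w and rose 7.09-fold (log2 change 2.83, SE 0.30, adjusted p = 1.2e-05). The 3 values at 1w lay close together, and at 4w replicate 3 was highest. Saline lung had 61.7, 60.5 and 56.2 CPM at 4w, and by edgeR 0 of 16 genes passed against it. Spib, a B lineage transcription factor, had 3.46, 3.16 and 4.42 CPM at 1w and 23.1, 15.8 and 47.8 CPM at 4w (log2 change 2.97, SE 0.34, adjusted p = 2.1e-05). Without PQ 4w replicate 3 all 16 still rose, with a median of 1.94. Genes of lymphoid follicles rose in 9 of 12 with a median of 1.65 (1.38 without PQ 4w replicate 3, also with 9 higher), among them the follicle homing receptor Cxcr5 (2.15) and the lymphotoxins Lta (2.38) and Ltb (1.95). Their receptor Ltbr had 166, 156 and 151 CPM at 1w and 94.3, 106 and 97.4 CPM at 4w and fell (log2 change -0.66, SE 0.07, adjusted p = 1.16e-05). Cxcl13, the chemokine that organises follicles, had 16.4, 6.76 and 14.2 CPM at 1w and 5.06, 4.73 and 20.8 CPM at 4w and did not pass (adjusted p = 0.704).

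Plasma cell genes rose, and 5 of 9 exceeded saline lung at 4w, beside 5.75% of all genes. Of 16 listed 9 were tested, and of these 7 rose and 1 fell, with a median of 1.98. Jchain, the joining chain of secreted IgA and IgM (chromosome 5, 88519809 to 88527897), had the highest log2 change of the genes named by the rule on size: 8.2, 8.34 and 14.2 CPM at 1w and 406, 275 and 598 CPM at 4w (log2 change 5.38, SE 0.46, adjusted p = 2.23e-06). Every 4w library was at least 275 CPM, while saline lung had 16.8, 18.2 and 19.1 CPM (log2 difference 4.56, adjusted p = 0.000247). Mzb1, a chaperone of antibody assembly, had 1.32, 1.53 and 1.96 CPM at 1w and 12.8, 8.95 and 31.7 CPM at 4w (log2 change 3.47, SE 0.43, adjusted p = 3.81e-05) and was above saline lung as well (adjusted p = 0.0178). Pou2af1, a B cell coactivator, had 4.35, 4.41 and 4.69 CPM at 1w and 20.7, 17.4 and 48 CPM at 4w (log2 change 2.68, SE 0.32, adjusted p = 3.06e-05). Sdc1, which plasma cells share with epithelium, was the member that fell, by 0.62 on the log2 scale.

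All 21 T cell genes rose, beside 26.7% of all genes, with a median of 1.47 in treated and -0.49 in saline lung. The time change differed for all 21, beside 32.0% of all genes. Cd3e, of the receptor complex, had 2.86, 1.91 and 3.05 CPM at 1w and 8.19, 5.57 and 11.2 CPM at 4w (log2 change 1.67, SE 0.30, adjusted p = 0.000543). The largest rises in the list were of Foxp3 and Ctla4. Foxp3, the factor that defines regulatory T cells, had 0.33, 0.49 and 0.327 CPM at 1w and 3.57, 3.26 and 5.38 CPM at 4w and rose 10.5-fold (log2 change 3.39, SE 0.32, adjusted p = 5.46e-06). Its 4w values were all above those of saline lung, 1.16, 0.792 and 1.6 CPM (adjusted p = 0.00293). Ctla4, an inhibitory receptor, had 0.44, 0.382 and 0.709 CPM at 1w and 2.58, 3.99 and 4.61 CPM at 4w (log2 change 2.85, SE 0.33, adjusted p = 2.17e-05), also above saline lung (adjusted p = 0.00293). Izumo1r, the folate receptor 4 of regulatory and resting T cells, had 0.11, 0.164 and 0.273 CPM at 1w and 1.81, 0.956 and 4.67 CPM at 4w (log2 change 3.72, SE 0.64, adjusted p = 0.000424). Cd8a and Cd8b1 rose by 0.79 and 1, and Cd4 by 1.55. Whether these rises differ from one another was not tested.

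All 16 NK cell genes rose with a median of 1.75, beside 26.7% of all genes. In saline lung 6 fell with a median of -0.66, beside 4.2% of all genes. Ncr1, the activating receptor NKp46, had 0.55, 0.218 and 0.6 CPM at 1w and 2.75, 2.76 and 3.02 CPM at 4w (log2 change 2.62, SE 0.28, adjusted p = 1.42e-05), and Klrb1c, the NK1.1 antigen, had 2.2, 1.74 and 1.42 CPM at 1w and 6.05, 7.26 and 6.86 CPM at 4w (log2 change 1.91, SE 0.20, adjusted p = 1.06e-05). Their 4w ranges lay near those of saline lung, 3.59, 3.45 and 2.74 CPM and 9.32, 8.2 and 6.11 CPM. Gzma, a granzyme, rose in treated lung with 6.22, 3.54 and 6.22 CPM at 1w and 17, 17.7 and 19.2 CPM at 4w (log2 change 1.76, SE 0.24, adjusted p = 8e-05) and fell in saline lung by 1.05 on the log2 scale (adjusted p = 0.0213). Reads of the Klra genes, a family of near-identical copies, may be split uncertainly between members. Without PQ 4w replicate 3, 15 of 16 NK genes rose.

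Dendritic cell genes rose, and 11 of 16 stood above saline lung at 4w, beside 5.75% of all genes. Of 16 dendritic genes 11 rose and 1 fell, with a median of 1.22. Xcr1, the chemokine receptor of cross-presenting dendritic cells, had 2.2, 2.18 and 2.07 CPM at 1w and 13.3, 9.9 and 10.2 CPM at 4w (log2 change 2.37, SE 0.15, adjusted p = 2.79e-07), above the 4.4, 3.96 and 4.28 CPM of saline lung (adjusted p = 0.000347). Clec9a, a receptor of the same cells for dead cell actin, had 18.6, 18.1 and 20 CPM at 1w and 54, 48.6 and 49.7 CPM at 4w (log2 change 1.43, SE 0.09, adjusted p = 2.51e-07). Cd207, langerin, rose from 0.165, 0.109 and 0.164 CPM to 3.24, 2.7 and 1.87 CPM (log2 change 4.09, SE 0.34, adjusted p = 2.06e-06). Of 13 antigen presentation genes 11 rose, Cd80 and Ctss fell, and 12 were above saline lung at 4w, beside the same 5.75%. H2-Aa, a class II chain, had 226, 244 and 277 CPM at 1w and 889.8, 693 and 975 CPM at 4w (log2 change 1.77, SE 0.13, adjusted p = 5.37e-07), and H2-Ab1 had 249, 269.9 and 289 CPM at 1w and 937, 712 and 1008 CPM at 4w (log2 change 1.72, SE 0.12, adjusted p = 5.55e-07). Cd74, the invariant chain, had 934, 1030 and 1088 CPM at 1w and 2883, 2170 and 3181 CPM at 4w (log2 change 1.43, SE 0.13, adjusted p = 4.68e-06). In each of the 3 genes all 4w values exceeded all values of saline lung and of 1w.

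Interferon-induced genes rose in 26 of 28, with a median of 1.18, and 0 passed in saline lung, beside 10.1% of all genes. The time change differed for 23, and 19 were above saline lung at 4w, beside 32.0% and 5.75% of all genes. The size rested on PQ 4w replicate 3. The list's level was -0.70 to -0.41 at 1w and 0.17, 0.21 and 1.32 in PQ 4w replicates 1 to 3. Without replicate 3, 22 of 28 rose with a median of 0.68. Oas2, a sensor of double-stranded RNA, had 11.1, 10.5 and 14.7 CPM at 1w and 31.5, 35.5 and 60.9 CPM at 4w (log2 change 1.82, SE 0.23, adjusted p = 4.47e-05), and Mx2, an antiviral GTPase, had 1.59, 1.47 and 1.58 CPM at 1w and 5.11, 5.68 and 10.9 CPM at 4w (log2 change 2.22, SE 0.29, adjusted p = 6.32e-05). Isg15, a ubiquitin-like protein, had 9.68, 8.18 and 10.1 CPM at 1w and 12.8, 14.5 and 47.8 CPM at 4w (log2 change 1.42, SE 0.39, adjusted p = 0.0087), and Ifit3 had 50.4, 57.1 and 63 CPM at 1w and 64.3, 69.1 and 188 CPM at 4w (log2 change 0.92, SE 0.32, adjusted p = 0.0287). In replicates 1 and 2 both genes lay just above the 1w range. Gbp10, a guanylate-binding protein, had 0.44, 0.545 and 0.654 CPM at 1w and 2.03, 1.12 and 12.6 CPM at 4w (log2 change 3.25, SE 0.82, adjusted p = 0.00522), and Ms4a4c had 1.49, 1.53 and 2.02 CPM at 1w and 5.72, 6.25 and 25.1 CPM at 4w (log2 change 2.88, SE 0.60, adjusted p = 0.00151), again highest in replicate 3.

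Interferon-induced promoters are known for the interferon-stimulated response element (ISRE), bound by STAT and IRF factors. The promoters of Isg15, at chr4:156200819-156201068 on the minus strand, and Ifit3, at chr19:34583279-34583528 on the plus strand, are shown because the list moved together and differed between the 4w libraries. They are 250 bases before a RefSeq start in GRCm38.p6, with capitals on matches to GAAA, any 2 bases and GAAA on either strand, which overlap one another in Isg15. The Ifit3 window lies inside the gene's listed span, which begins at 34583119, so the start used for it is a later one.
Isg15: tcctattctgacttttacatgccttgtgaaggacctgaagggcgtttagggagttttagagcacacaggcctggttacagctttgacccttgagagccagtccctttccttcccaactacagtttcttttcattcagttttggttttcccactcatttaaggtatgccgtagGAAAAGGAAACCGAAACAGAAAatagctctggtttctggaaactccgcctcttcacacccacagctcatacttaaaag
Ifit3: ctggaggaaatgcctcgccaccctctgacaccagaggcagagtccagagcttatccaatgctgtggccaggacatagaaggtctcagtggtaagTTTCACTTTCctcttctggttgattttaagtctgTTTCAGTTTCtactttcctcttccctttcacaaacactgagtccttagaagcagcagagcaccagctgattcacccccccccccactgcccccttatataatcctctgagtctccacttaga
Matches began 78, 72 and 66 bases before the start of Isg15 and 156 and 122 bases before the start used for Ifit3. Of the 18 interferon-induced genes with a window 12 (66.7%) held a match, beside 3.3% of tested genes. A match is a description of letters only.

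Type 2 and mucous genes varied between libraries at 4w. Of 16 genes of alternative activation 6 rose and 5 fell, beside 26.7% and 27.8% of all genes. The median was 0.49, and it was 0.29, 0.06 and 0.34 without PQ 4w replicates 1, 2 and 3. Clca1, a goblet cell protein induced by interleukin 13, had 0.11, 14.2 and 3.87 CPM at 1w and 21.7, 999 and 1.15 CPM at 4w (log2 change 5.81, SE 1.70, adjusted p = 0.0123), so the rise rested on replicates 1 and 2 and mainly on replicate 2, with replicate 3 inside the 1w range. Without replicate 2 Clca1 did not pass, at a log2 change of 0.90 (adjusted p = 0.535). Chil4, a chitinase-like protein, had 1.16, 11.2 and 0.873 CPM at 1w and 0.88, 179 and 0.494 CPM at 4w and did not pass (adjusted p = 0.0544). Prg2, the major basic protein of eosinophils, had 0.11, 0.0545 and 0.0545 CPM at 1w and 3.19, 2.36 and 3.29 CPM at 4w (log2 change 5.21, SE 0.38, adjusted p = 6.18e-07), and was above saline lung (adjusted p = 0.000156). Dnase1l3, a DNase of dendritic cells and macrophages, had 0.99, 0.6 and 0.818 CPM at 1w and 7.53, 4.05 and 24.3 CPM at 4w (log2 change 3.89, SE 0.59, adjusted p = 0.00017), and Plekhs1, of unclear function, had 0, 0.327 and 0.109 CPM at 1w and 1.59, 1.12 and 3.24 CPM at 4w (log2 change 3.71, SE 0.70, adjusted p = 0.000842). Npy2r, a neuropeptide Y receptor, had 3 counts over the 3 libraries at 1w and 109 at 4w, a ratio of 36.8 with a 95% counting interval of 12.3 to 181.0. It was listed at 0 in all 6 saline libraries. At the other end Dmp1, a mineralised matrix protein, had 126 counts at 1w and 2 at 4w (ratio 62.2, interval 16.9 to 519.0). Gbx2, a homeobox factor, had 118 and 2 (ratio 58.3, interval 15.8 to 487.0). Tnfsf18, the ligand of GITR on T cells, had 10.2, 8.01 and 7.69 CPM at 1w and 0.055, 0.619 and 0.165 CPM at 4w (log2 change -4.92, SE 0.43, adjusted p = 2.7e-06), and A2m, a protease inhibitor of the acute phase, had 6.27, 8.23 and 5.67 CPM at 1w and 0.055, 0.281 and 0.384 CPM at 4w (log2 change -4.77, SE 0.36, adjusted p = 7.96e-07). Hmga2, a chromatin protein of embryonic and repairing tissue, had 1.1, 6.76 and 4.69 CPM at 1w and 0.275, 0.338 and 0.0549 CPM at 4w, and Ear6, an eosinophil-type ribonuclease with close paralogs whose reads may be split uncertainly, had 1.65, 3.49 and 3.05 CPM at 1w and 0.165, 0.0563 and 0.22 CPM at 4w.

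Vascular genes changed little between 1w and 4w. Of 20 endothelial genes 3 rose and 1 fell (median 0.094), and of 19 capillary genes 5 rose and 1 fell (median 0.19), beside 26.7% and 27.8% of all genes. Against saline lung the capillary median was -0.80 at 1w, with 12 genes lower (22.9% of all genes), and -0.70 at 4w, with 12 lower (6.39%). Car4, carbonic anhydrase of alveolar capillaries, had 119, 128 and 120.2 CPM at 1w and 50.9, 124 and 108 CPM at 4w with no pass (adjusted p = 0.181) and 224, 216 and 195 CPM in saline lung. Apln, the peptide ligand apelin, had 24.2, 29.6 and 34.2 CPM at 1w and 14.5, 27.3 and 35.7 CPM at 4w against 91.7, 68.3 and 69 CPM in saline lung (adjusted p = 0.00292 at 4w). Cyp4b1, a cytochrome of capillary and airway cells, was the strongest member to rise, with 167, 136 and 126 CPM at 1w and 287, 459.7 and 398 CPM at 4w (log2 change 1.42, SE 0.15, adjusted p = 1.26e-05). Vwf, of larger vessels, had 836, 866 and 939 CPM at 1w and 286, 508 and 542 CPM at 4w and fell (log2 change -0.98, SE 0.19, adjusted p = 0.0011). PQ 4w replicate 1 was the lowest in the capillary list, at -1.21 against -0.41 and -0.45 in replicates 2 and 3. Without it 10 capillary genes rose and 0 fell, and 8 endothelial genes rose and 1 fell.

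Some genes stayed away from the saline level at both times without a passing change between them. Of such genes with a mean of at least 1 CPM, 139 were higher (0.873% of the 15921 tested) and 287 lower (1.8%) than in saline lung. These counts rest on the comparison with saline lung at 4w and were 62 and 87, 97 and 186, and 95 and 181 without control 4w replicates 1, 2 and 3, and 83 and 160 without PQ 4w replicate 1. With library totals as the scale they were 226 and 187, and by limma on log2(FPKM + 1) 175 and 175. Npr3, the natriuretic peptide clearance receptor (chromosome 15, 11839896 to 11907837), had 79.8, 71.5 and 72.3 CPM at 1w and 37.7, 82.9 and 139 CPM at 4w, with overlapping times, against 379.9, 392 and 411 CPM and 376, 325 and 375 CPM in saline lung at 1w and 4w. Its level at 4w was lower by 2.05 on the log2 scale (adjusted p = 0.00274). Olfm2 had 6.55, 3.87 and 3.05 CPM at 1w and 1.21, 1.69 and 3.9 CPM at 4w against 9.95, 11.1 and 6.05 CPM in saline lung at 4w. Its fall from 1w to 4w passed under 5 of the 21 alternatives. Krt79 had 1.65, 5.72 and 3.6 CPM at 1w and 0.44, 4.33 and 4.39 CPM at 4w against 14.8, 16.9 and 15.5 CPM. Nlrp12, an inhibitory receptor of myeloid cells, had 1.38, 0.654 and 0.873 CPM at 1w and 0.385, 0.506 and 0.878 CPM at 4w against 2.26, 5.09 and 1.2 CPM. Apob, the lipoprotein chain, had 3 counts over the 1w libraries and 21 over the 4w libraries against 2.31, 2.54 and 1.54 CPM in saline lung at 4w. The ratio of Apob between the times was 7.09 with a 95% counting interval of 2.12 to 37.1. Its rise passed under 3 alternatives, so a change between the times is not excluded. Ntrk2, the receptor of brain-derived neurotrophic factor, was high at both times, with 71.3, 95.5 and 95.4 CPM at 1w and 191, 104 and 70.2 CPM at 4w against 15, 18.8 and 21.2 CPM (log2 difference 2.73 at 4w, adjusted p = 0.000574). Retnla, a resistin-like protein of type 2 responses, had 604, 459 and 459 CPM at 1w and 352, 825 and 22.5 CPM at 4w, and Agr2, a disulfide isomerase of mucous cells, had 2.64, 5.39 and 6.38 CPM at 1w and 11.9, 11.4 and 0.549 CPM at 4w. For both genes replicate 3 of 4w was far below replicates 1 and 2, within the range of saline lung over both times for Agr2 and below it for Retnla. Sprr2a2 and Sprr2a3, squamous cell envelope proteins that share nearly the same sequence, stood above saline lung at both times, with 3.19, 3.05 and 2.73 CPM at 1w and 8.52, 1.8 and 0.329 CPM at 4w of the former and 1.32, 2.56 and 3.71 CPM at 1w and 4.67, 2.92 and 0.275 CPM at 4w of the latter, and their reads may be split uncertainly.

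Drug metabolism genes rose in 19 of 24 with 1 lower (median 1.25), beside 26.7% and 27.8% of all genes. In saline lung 10 rose (median 0.52), beside 5.9% of all genes. The difference was higher for 15, beside 14.1% of all genes. Without PQ 4w replicate 3, 19 rose and 1 fell in treated lung, with a median of 1.34. Aox3, an aldehyde oxidase, had 25, 31.4 and 22.8 CPM at 1w and 198, 190.5 and 155 CPM at 4w and rose 6.86-fold (log2 change 2.78, SE 0.12, adjusted p = 1.44e-08). Cyp1a1, induced through the aryl hydrocarbon receptor, had 15.7, 3.43 and 5.73 CPM at 1w and 47, 56.3 and 36.7 CPM at 4w (log2 change 2.49, SE 0.46, adjusted p = 0.000712). Nnmt, a methyltransferase of activated fibroblasts, was the member that fell, by 1.88 on the log2 scale.

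Antioxidant genes fell in 17 of 32 and rose in 6, beside 27.8% and 26.7% of all genes, with a median of -0.32. Hmox1, haem oxygenase, had 326, 202 and 175 CPM at 1w and 42.3, 41.4 and 40.7 CPM at 4w and fell 5.66-fold (log2 change -2.50, SE 0.18, adjusted p = 6.97e-07). Mt2, a metallothionein, had 242, 141 and 195 CPM at 1w and 56.7, 49.3 and 36.8 CPM at 4w (log2 change -2.02, SE 0.34, adjusted p = 0.00034). Cat, catalase, rose, with 124, 133 and 129 CPM at 1w and 295, 296 and 268 CPM at 4w (log2 change 1.16, SE 0.061, adjusted p = 6.46e-08), and Gstm1, a glutathione transferase, had 178, 144 and 154 CPM at 1w and 454, 518 and 418 CPM at 4w (log2 change 1.55, SE 0.11, adjusted p = 5.61e-07). Of 22 p53 targets 10 fell and 4 rose, beside 27.8% and 26.7% of all genes. Cdkn1a, the p21 inhibitor of the cell cycle, had 256, 213 and 232 CPM at 1w and 87.6, 111 and 118 CPM at 4w (log2 change -1.14, SE 0.17, adjusted p = 0.000136), and all 3 libraries at 4w were below the 327, 317 and 198 CPM of saline lung (log2 difference -1.41, adjusted p = 0.000919). Phlda3 had 106, 107 and 116 CPM at 1w and 45.5, 60 and 50.5 CPM at 4w (log2 change -1.08, SE 0.11, adjusted p = 1.09e-05).

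Of 23 glycolytic and hypoxia genes 10 fell and 2 rose, beside 27.8% and 26.7% of all genes. Pkm, pyruvate kinase, had 856, 919 and 879 CPM at 1w and 421, 448 and 448 CPM at 4w (log2 change -1.01, SE 0.062, adjusted p = 1.98e-07), and Pgam1 had 200.2, 209.8 and 217 CPM at 1w and 111, 110.2 and 105 CPM at 4w (log2 change -0.94, SE 0.052, adjusted p = 9.64e-08). Gapdh, often used as a reference gene, fell 1.97-fold with 1259, 1370 and 1335 CPM at 1w and 685, 688 and 639 CPM at 4w. Of 25 complex I genes 13 fell and 1 rose in treated lung (median -0.23), beside 27.8% and 26.7% of all genes. In saline lung 10 rose (median 0.25), beside 5.9% of all genes. The saline count over all genes moved between 123 and 2570 with 1 library left out. The difference was lower for 20 complex I genes, beside 17.9% of all genes. Without PQ 4w replicate 1, 8 fell and 1 rose in treated lung. With library totals alone as the scale, the median log2 change of all genes moved from 0.0037 to 0.0738, against which these small changes should be set. Cholesterol and fatty acid synthesis genes fell in 15 of 24 with 1 rise, beside 27.8% and 26.7% of all genes. Scd1, a desaturase, fell, with 1988, 2558 and 2162 CPM at 1w and 1037, 1184 and 1226 CPM at 4w (log2 change -0.96, SE 0.12, adjusted p = 3.2e-05). It also fell in saline lung by 0.67 on the log2 scale. Clock genes rose in 11 of 18 and fell in 5, beside 26.7% and 27.8% of all genes. Dbp, an output of the clock, had 26, 29.3 and 32.2 CPM at 1w and 131, 132 and 97.1 CPM at 4w and rose in both treatments (2.04 and 2.51), while Nr1d1 had 74.6, 59 and 58.1 CPM at 1w and 282, 319.6 and 283 CPM at 4w and rose more in treated lung (adjusted p of the difference 0.000553). The labels used here give no hour of collection, and its part in the clock result was not tested.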

How the data were processed

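Per the labels, lung RNA of 12 samples, 3 per group, with an integrity number over 7 and a 28S/18S ratio over 1, was sequenced on a BGISEQ 500. The submitters' processing notes name HISAT, RSEM 1.2.12 and mm10; which HISAT version, which strand setting and which gene models were used is not given in the sources used here. Per the file headers, the authors deposited expected counts per gene, as RSEM estimates them, and FPKM, which corrects for gene length and depth. Of the expected counts 69.7% were whole numbers. They were rounded for the count tests. In 27 rows a gene symbol turned into a date was restored through the gene ID.

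CPM here is counts scaled to a common library size. Counts were fitted with edgeR 4.0.16 in R 4.3.3: TMM scaling, filterByExpr (minimum count 10, total 15), 1 model of 4 group means over all 12 libraries so that they share 1 estimate of spread, and quasi-likelihood tests of contrasts with Benjamini-Hochberg adjustment over 15921 genes. The authors' deposited values carry no log scale; CPM and log2 values were computed here. SE is the log2 change divided by the square root of F. No set test was run. A list's level is the mean of log2(CPM + 0.5) over its genes, relative to control 1w. Depth was 17220978 to 18559809 counts a library; counting intervals are exact, at 95%, and cover counting error only. The fit was also run on simulated data in which few genes changed, in 1 group only. That run cannot test the scaling or the error rate where most genes change, as they did here.

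The genes and lists were chosen with earlier results of these data known. Genes named by rule were the 8 highest and 8 lowest changes with no overlap and at least 1 CPM, a fixed list of anchors, the 2 members with the smallest p of each list, 5 and 5 that stayed away from control at both times, and 5 and 5 whose change differed most from control. All other genes named were chosen after their values were seen, and a few results are not reported here. Promoter sequences and coordinates are RefSeq's, GRCm38.p6, and 20718 of 20774 genes matched. Alternatives were DESeq2 1.42.0, DESeq2 size factors, library totals, other filters, limma 3.58.1 on log2(FPKM + 0.1) and log2(FPKM + 1), the replicate number as a block, only the 6 libraries, and each library left out. Figures used matplotlib 3.10.9, with pandas 2.3.3 and numpy 2.4.6 in Python 3.11.15.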

Additional observations from a re-analysis of the deposited data

Results flagged for a closer look

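In 155 of the 15921 genes tested the time change passed in treated and in saline lung with opposite direction. Of these, 75 fell after paraquat and rose after saline, and 80 did the reverse. A passing difference between the treatments was also a condition, so its adjusted p is no further evidence. Genes named by rule that were of this kind are given with that difference, by the interaction term of edgeR's quasi-likelihood fit. Gzma, the granzyme of cytotoxic cells, had a difference of log2 changes of 2.81 (adjusted p = 0.000114). Spp1, osteopontin, had one of -3.69 (adjusted p = 3.73e-05). For the complex I subunit Ndufa8 it was -0.70 (adjusted p = 0.000296). The count of 155 rests on the saline comparison, whose own count of calls moved with single libraries. No explanation was tested.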

How the results depend on the processing

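The count of genes changed between 1w and 4w after paraquat, 8684, ranged from 7463 to 8758 over the 21 alternatives, all within 1.5 times, and the count whose change differed from saline lung, 5092, from 4107 to 5250. The saline count of 1609 was 123 to 2570 with 1 library left out: 337 and 139 without control 1w replicates 1 and 3, 678, 123 and 159 without control 4w replicates 1 to 3, 931 without PQ 1w replicate 3 and 2570 without PQ 4w replicate 3. The share of its calls that were higher fell from 58.4% to 23.0%, 34.1%, 30.2% and 43.2% without control 1w replicate 3, control 4w replicates 2 and 3 and control 1w replicate 2. The count against saline lung at 4w, 1932, ran from 641 to 2104 with 1 library left out and was 2206 by DESeq2, and it was 641, 1096, 1183 and 994 without control 4w replicates 1 to 3 and PQ 4w replicate 1. The cause was not tested. Of 151 genes named by rule 134 passed, 132 of them under every alternative that gave a value. All 21 alternatives gave one for 130 genes, 18 for Dmp1 and 19 for Hmga2, Npy2r and Plekhs1. Npy2r lost the call with DESeq2 and Gbp10 with limma on log2(FPKM + 1). Several rules chose genes by passing, no overlap, small p or not passing in this same comparison. The split and the steadiness of the passing genes were therefore in part set by the choice.

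Among the genes named by rule, direction reversed only in genes that had not passed. With 1 library left out, the log2 change ran from -0.24 to 0.030 for C3, from -1.37 to 0.051 for Cxcl13 (0.037 without PQ 4w replicate 1), from -0.65 to 0.021 for Hbb-bs (0.016 without PQ 1w replicate 3), from -0.0029 to 0.74 for Ntrk2, from -1.45 to 0.20 for Retnla, from -0.64 to 0.25 for Krt79 (0.21 without PQ 1w replicate 2) and from -0.33 to 0.58 for Npr3. The library at the reversed end was PQ 4w replicate 2 for C3 and Cxcl13, replicate 3 for Hbb-bs, Retnla and Npr3 and replicate 1 for Ntrk2 and Krt79. For Sprr2a2 the range was -1.49 (without PQ 4w replicate 1, adjusted p = 0.0306) to 0.77, with -0.45 and -0.026 by limma on log2(FPKM + 0.1) and log2(FPKM + 1). For Sprr2a3 it was -0.67 (without PQ 4w replicate 1) to 0.57, with -0.26 and -0.042 without PQ 1w replicate 1 and PQ 4w replicate 2, and -0.43 and -0.14 by limma.

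With the replicate number as a block, 8453 genes passed after paraquat, 4826 for the difference, 1447 after saline, and 7636 and 1646 against saline lung at 1w and 4w, all within 1.5 times. Of the genes named by rule, only Sprr2a2 and Sprr2a3 changed direction under the block (log2 change -0.34 and -0.14), and neither had passed. Same-numbered PQ libraries had correlations of deviations of -0.142, 0.242 and 0.025. With deviations taken from means of 3 libraries, these values cannot decide whether the numbers pair the samples.

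Of the list medians recomputed under the alternatives, 979 stayed within the spread between libraries and 50 moved further. Depth limits the genes with few counts: Dmp1, Gbx2, Npy2r and Apob rest on 2 or 3 counts at their low time.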

Other observations

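Of 21 complement genes, 7 fell and 6 rose from 1w to 4w after paraquat, beside 27.8% and 26.7% of all genes, and 12 stood above saline lung at 4w, beside 5.75%. C3ar1, a receptor for the C3 fragment on myeloid cells, and the C1q chains C1qb and C1qc fell, with log2 changes of -1.21, -0.70 and -0.67. The terminal components C6 and C7 rose, by 0.88 and 1.31. Of 14 monocyte genes 5 rose and 5 fell, beside the same shares of all genes, and without PQ 4w replicate 3, 2 rose and 6 fell. The classical monocyte gene Ly6c2 rose, by 1.54, while Vcan and F13a1 fell, with log2 changes of -3.33 and -2.55. Vcan and Fn1 are also in the list of matrix glycoproteins and proteoglycans, so their falls are counted in both lists.

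Immediate early genes, induced within minutes by growth signals and by tissue handling, fell in 9 of 21 and rose in 3, beside 27.8% and 26.7% of all genes. Fos, Egr1 and Junb fell, with log2 changes of -1.49, -1.36 and -0.90, while Jun rose by 0.29. Of 24 genes of endoplasmic reticulum stress 6 rose and 4 fell, beside 26.7% and 27.8% of all genes, with 3 and 5 without PQ 4w replicate 1, 6 and 2 without replicate 2 and 4 and 9 without replicate 3. Herpud1, of protein disposal, rose by 0.75 and Calr, a chaperone, fell by 0.45 on the log2 scale. Of 11 pericyte genes 4 rose and 3 fell, beside the same shares of all genes. In the adventitial fibroblast list 2 of 13 rose and 5 fell, beside the same shares, with Gsn at 1.23 and Cd34 at -0.77. In the basal and squamous epithelial list 2 of 8 fell and 1 rose, beside 27.8% and 26.7% of all genes. Krt14 and Krt15 fell, with log2 changes of -2.09 and -2.61, beside -3.13 (adjusted p = 0.0277) and -2.58 (adjusted p = 0.0638) in saline lung by edgeR. Their time change did not pass as different between the treatments (adjusted p = 0.415 and 0.987). Aqp3 rose by 1.55.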
